A study of Drosophila melanogaster with 4 samples.

Results

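The regions described here are the stretches of the X chromosome of Drosophila melanogaster that the authors listed as enriched for H3K36me3, histone H3 trimethylated on lysine 36. They were taken from the authors' combined list as all enriched regions on X that start at or before base 21422827, which leaves out the 1 Mb next to the centromere, and they number 700 of 3981 regions in the whole list. The study used chromatin immunoprecipitation and sequencing (ChIP-seq) on nuclei of larvae in their last instar, the stage before pupation, of the wild-type strain Oregon-R. It has 2 ChIP replicates, made with an anti-H3K36me3 antibody supplied by abcam, and 2 inputs, chromatin sequenced without immunoprecipitation, each paired by the labels with the list of 1 ChIP replicate. No agent or mutation is named for any sample. The labels do not state whether the replicates are separate larval collections, and the spread between them may be technical only. The labels name no single tissue, so each list may average over many, and the sex of the larvae, which sets how many X chromosomes a cell carries, is not stated in the labels.

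H3K36me3 is laid down behind elongating RNA polymerase II by the methyltransferase Set2, so it lies over the bodies of transcribed genes and is usually richer toward their ends than at their starts. On the male X of Drosophila it has a further role: the chromodomain protein MSL3 of the dosage compensation complex binds it, and the complex spreads from its entry sites to active genes that carry the mark. Stretches with no mark are, in general, those with silent genes or few genes.

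Each region has a score from the authors in a unit that is not stated. It is used below mainly to rank regions, as a percentile among the regions of the large arms X, 2L, 2R, 3L and 3R in the same list. For changes between replicates, regions are ranked among the matched regions alone. A few scores are given as deposited. Coordinates are those of FlyBase release 5, which the file headers name. The gene table at hand is of another release, so regions are given by position and not by gene. The lists held 683 X regions within the same limit in replicate 1 and 722 in replicate 2. Read counts were not used here, so depth is unknown.

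The X regions were several kilobases wide and together covered a sizeable minority of the chromosome. In the combined list they held 4.41 Mb, or 20.6% of X up to the limit. The covered share was 19.5% in replicate 1 and 19.8% in replicate 2, a mean of 19.6% ± 0.215 (SD, n = 2). Density was 32.7 regions per Mb in the combined list, 31.9 in replicate 1 and 33.7 in replicate 2. The median width was 5009 bp, with quartiles of 3269 and 7758 bp and a range from 1001 to 48023 bp. In the replicates the median was 4881 and 4660 bp, and no X region was narrower than 1334 and 1333 bp.

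A modest number of wide regions carried much of the covered sequence. Regions of 10 kb or more numbered 112 in the combined list, 16.0% of the members, and held 37.7% of the covered bases. The widest 174 members held 50% of the covered bases. At the other end, 59 members were under 2 kb, and they held 1.98% of the bases. Width and score moved together, with a Spearman rho of 0.74 across the 700 members, 0.70 across the regions of replicate 1 and 0.74 across those of replicate 2.

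The widest member ran from 6699052 to 6747074, 48.0 kb, and was 1 region of 47.8 kb in replicate 2. Replicate 1 listed it as 3 regions of 9.12, 27.7 and 8.99 kb, which together covered 95.4% of it. The second, from 1750715 to 1792892, measured 42.2 kb and was a single region of 40.9 kb in each replicate. Both stand well apart from the next, which had 27.4 kb and lay from 19503583 to 19530947. It too was 1 region in replicate 2, of 27.4 kb, and was split in replicate 1 into regions of 3.25 and 23.4 kb.

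The other members among the 10 widest had between 21.0 and 27.1 kb. That from 15607785 to 15634902 measured 26.8 kb in replicate 1 and 27.1 kb in replicate 2, and it was also among the 10 highest scored. Those from 19532336 to 19555714, from 363926 to 387282, from 19367160 to 19389625 and from 10736799 to 10758975 were single regions in each replicate, with replicate means of 23.3, 23.2, 22.3 and 21.9 kb and SDs of at most 0.182 kb. The member from 16190950 to 16213395 was 1 region of 22.3 kb in replicate 1 but 4 regions of 6.56, 5.34, 4.23 and 5.80 kb in replicate 2. Their score percentiles in replicate 2 were 97.5, 24.3, 94.9 and 64.9, so 1 low-scored piece sat between higher-scored ones. The member from 13608116 to 13629098 was likewise whole in replicate 1, at 20.6 kb, and split into 3.95 and 17.0 kb in replicate 2. The number of separate regions in the widest stretches thus differed between lists where the covered bases hardly did.

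The highest scores were not confined to the widest members. The member with the highest score ran from 15765233 to 15780380, 15.1 kb, at percentile 99.5 in replicate 1 and 99.8 in replicate 2. The second, from 8139007 to 8146067, had 7.06 kb and stood at percentiles 99.3 and 99.9. The third, from 19144592 to 19154505, had 9.91 kb and stood at 99.8 and 99.6. The fourth, from 7173864 to 7179711, had only 5.85 kb and ranked 288 of 700 by width, with percentiles of 98.5 and 99.8. It follows the 170 kb bare stretch from 7004180 to 7173863, so a highly scored region can border a long stretch with no listed region. The same holds for the member from 16962267 to 16968588, which had 6.32 kb, percentiles of 98.7 and 98.2, and an empty 104 kb on one side. The member from 2621123 to 2633156, with 12034 bp and percentiles of 95.9 and 99.4, was followed by 182 kb with no region.

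Of the remaining members among the 10 highest scored, 2 lay close together, from 6133774 to 6147634 and from 6177788 to 6195794. Their percentiles in replicates 1 and 2 were 98.6 and 99.7 for the first and 96.9 and 99.6 for the second. That from 19745894 to 19760089 stood at 96.2 and 99.8. All 10 were single regions in each replicate.

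Coverage differed strongly between neighbouring megabases. Over the 21 whole windows of 1 Mb, the covered share in the combined list ran from 10.6% to 32.9%, with a median of 21.9%. The SD between replicates within a window was 0.282 percentage points in the median and 0.866 at most, so the differences between windows were far larger than the spread between replicates. The highest shares were in the windows from 15000001 to 16000000, from 11000001 to 12000000 and from 16000001 to 17000000. In the first of them 31.9% of bases were covered in replicate 1 and 32.1% in replicate 2. The second had 29.6% and 30.0%, and the third 28.9% and 28.8%.

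The lowest shares were in the windows from 12000001 to 13000000, from 3000001 to 4000000 and from 14000001 to 15000000. The first had 10.3% in replicate 1 and 10.2% in replicate 2, next to the second densest window of X. The window from 3 to 4 Mb had 10.6% and 10.1%, and that from 14 to 15 Mb had 9.89% and 11.0%. The last lies directly before the densest window of all.

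**Figure D1:**
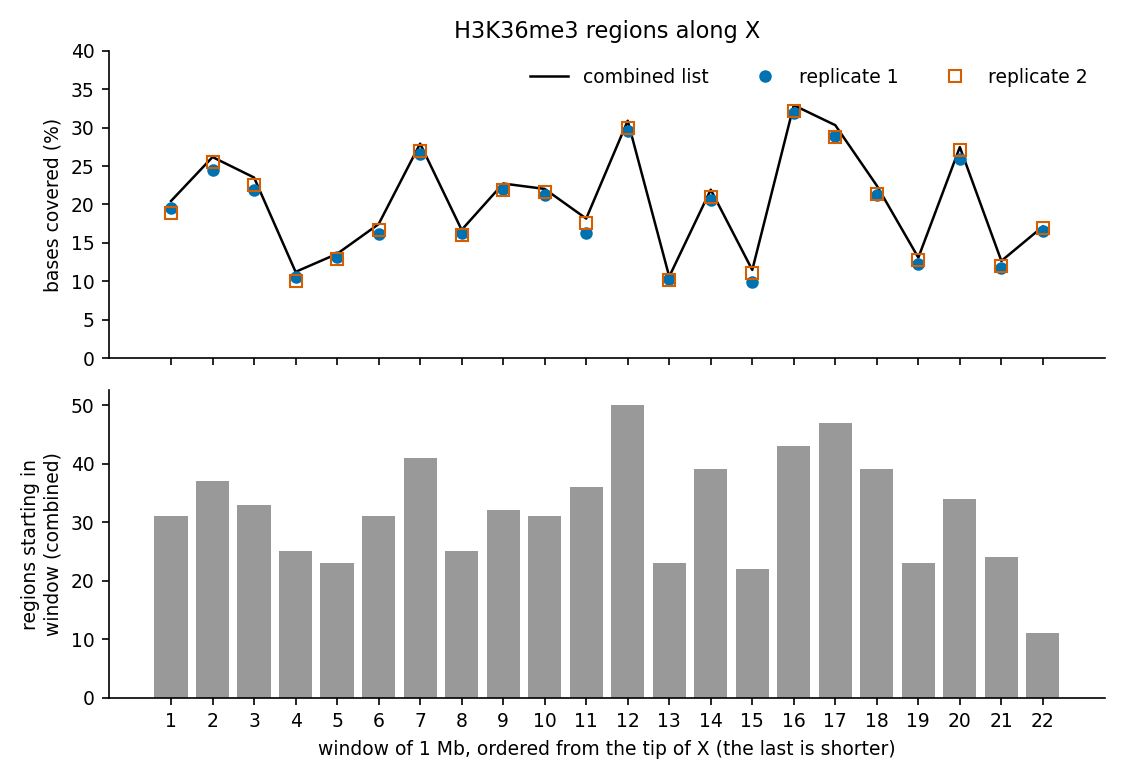
Covered share (%) of each 1 Mb window of X in the combined list (line) and in replicates 1 and 2 (points), and below it the number of combined regions that start in each window. Windows are ordered from the tip of X toward the centromere, the last holds 0.423 Mb, and the replicate points nearly coincide in every window while the windows range from 10.6% to 32.9%.

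Dense windows had more regions and, less closely, wider ones. Covered share is made up of the number and the widths of regions, so both relations are in part built in. Across the 21 windows the covered share followed the number of regions with a Spearman rho of 0.89, and the median width of regions with 0.53. The number of regions ran from 22 to 50 per window, and the median width from 3752 to 6599 bp. The length of bare sequence in a window fell as coverage rose, with a rho of -0.72, and the median score percentile was only loosely related, with a rho of 0.30. Windows are parts of 1 chromosome and share their libraries, so these values are descriptions without a test.

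Members came in close groups separated by long gaps. The median gap between neighbours was 5401 bp, and it was 5206 bp in replicate 1 and 4864 bp in replicate 2. Gaps under 1 kb made up 21.0% of all gaps in the combined list, while the 52 gaps of 100 kb or more were 7.44% of the gaps and held 50.1% of all bases between members. Joined at gaps under 1 kb, 264 members formed 117 runs, of which 91 had 2 members, 22 had 3 and 4 had 4. The longest run spanned 59.5 kb from 15591707 to 15651157, held 4 members and was covered for 94.1% in replicate 1 and 96.0% in replicate 2. The next went from 1750715 to 1802329, 51.6 kb, and from 16177254 to 16213395, 36.1 kb. Each contains a member named above among the widest.

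Neighbours within a run were hardly more alike in score than distant ones. Across 147 neighbouring pairs less than 1 kb apart, score percentiles differed by a median of 24.9 points, and across 182 pairs 20 kb or more apart by 27.7 points. The corresponding medians were 25.2 and 27.2 points in replicate 1 and 25.9 and 28.7 points in replicate 2. The rank correlation between close neighbours was 0.08 in the combined list, 0.0007 in replicate 1 and 0.05 in replicate 2. On the autosomal arms it was 0.16, 0.10 and 0.14 for pairs under 1 kb.

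Members that stood alone were narrower and lower in score. The 49 members with no neighbour within 20 kb measured 3501 bp in the median and stood at a median percentile of 30.5. The 264 with a neighbour within 1 kb had 5158 bp and 54.5, and the 387 between these limits had 5086 bp and 51.6. Of the isolated members 36 (73.5%) were found in both replicates, against 245 (92.8%) and 356 (92.0%) of the other groups. On the autosomal arms the 223 isolated regions were less set apart, with a median width of 4356 bp, a median percentile of 45.3 and 85.2% found in both replicates. The difference between X and the autosomal arms in this respect was not tested.

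Bare stretches, defined as 100 kb or more without a region of the combined list, took up much of X. They numbered 53 and made up 8.60 Mb, or 40.1% of X to the limit, with a median length of 150 kb. In the replicate lists alone there were 53 and 55, with 42.0% and 41.3% of X. No region of either replicate list lay wholly inside a bare stretch of the combined list. Edges of flanking regions reached in by at most 134 bases in replicate 1 and 175 bases in replicate 2. This follows largely from how the lists nest, since the combined list held all but 2 of the replicate regions. The lengths of the bare stretches did differ between lists: replicate 1 had 10 stretches of 200 kb or more, 13.6% of X, and replicate 2 had 8, 10.8% of X.

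The longest bare stretch ran from 20396360 to 20894103, 498 kb, and no base of it was covered in either replicate. The second, from 11922745 to 12353248, had 431 kb and takes up much of the sparse window from 12 to 13 Mb. It begins at a 13.0 kb region at the end of one of the densest windows. The third ran from 7237323 to 7564639, 327 kb, the fourth from 18031212 to 18266129, 235 kb, and the fifth from 2843852 to 3063237, 219 kb. In all, 8 stretches reached 200 kb and made up 10.8% of X. The last stretch, from 21262878, was counted only to the limit of the described sequence, 160 kb, although the next region begins 208 kb after the last member. Outside the bare stretches 34.4% of X was covered.

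The 101 members that border a bare stretch were somewhat narrower than the others. Their median width was 4272 bp against 5079 bp for the remaining 599, and their median score percentile was 47.8 against 52.4. Of them 90 (89.1%) were found in both replicates, against 547 (91.3%) of the others.

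**Figure D2:**
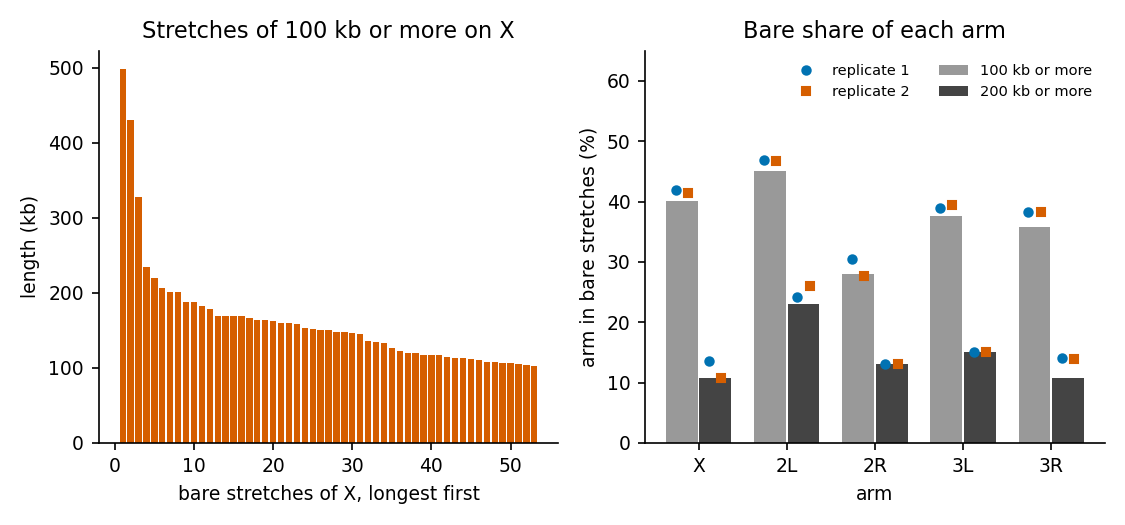
Left, length in kb of the 53 bare stretches of 100 kb or more on X, longest first. Right, percentage of each arm in bare stretches of at least 100 kb or 200 kb, in the combined list (bars) and in each replicate list (points): in the combined list X stands at 40.1% for 100 kb, second after 2L, but at 10.8% for 200 kb, level with 3R.

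The question for X, as the chromosome that is dosage compensated in males, is whether the mark is laid out there as on the autosomes. The arms 2L, 2R, 3L and 3R were measured in the same way, each without the 1 Mb next to its centromere, and gave 2971 regions in the combined list. The covered share of X lay within the range of the other arms. Replicate means were 17.7% ± 0.158 on 2L, 18.9% ± 0.207 on 3L, 19.6% ± 0.215 on X, 19.9% ± 0.314 on 3R and 23.3% ± 0.375 on 2R (SD, n = 2). X lay slightly below 3R in each replicate, with 19.5% against 19.7% in replicate 1 and 19.8% against 20.1% in replicate 2. X minus all autosomal arms was -0.198 percentage points in replicate 1 and -0.266 in replicate 2.

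What differed was how the covered bases were parcelled out. Regions of 10 kb or more were a smaller share of the regions on X than on any autosomal arm, in each of the 3 lists. The share was 14.9% in replicate 1 and 12.5% in replicate 2, a mean of 13.7% ± 1.75 (SD, n = 2) against 16.6% ± 0.191 on the autosomal arms together. Single arms had means from 15.3% ± 1.09 on 3L to 18.6% ± 0.544 on 3R. On 3L the share was 16.1% in replicate 1 and 14.5% in replicate 2. Joining regions under 1 kb apart brought X minus autosomal arms from -2.18 to -1.42 percentage points in the combined list. The upper quartile of width was also lowest on X in every list, with 7437 bp in replicate 1 and 7081 bp in replicate 2. The autosomal arms together had 8106 and 7897 bp. The lower quartile was not lower on X, with 3263 and 3109 bp against 3190 and 2995 bp on those arms. The median was 4881 and 4660 bp on X against 4998 and 4763 bp, but in the combined list it was 5009 against 4862 bp.

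Short gaps were more frequent on X. Gaps under 1 kb were 21.7% of the gaps in replicate 1 and 22.9% in replicate 2, a mean of 22.3% ± 0.837, against 19.1% ± 0.922 on the autosomal arms. X had the highest share of the 5 arms in each list. The share of regions in runs showed the same order, with 39.3% ± 1.58 on X and 34.1% ± 1.58 on the autosomal arms. By replicate mean the closest arm was 2R, with 19.9% ± 1.78 of gaps under 1 kb and 35.8% ± 2.74 of regions in runs. In replicate 2 it had 21.2% and 37.7%, against 22.9% and 40.4% on X. Among regions that scored no lower than their list's median, the difference in short gaps was gone: it was 2.02 percentage points in the combined list and -0.0228 among those regions.

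Bare stretches of 100 kb or more were also more numerous per Mb on X than on any other arm in each list. The density was 2.52 per Mb ± 0.0660 on X and 2.11 ± 0.0382 on the autosomal arms together. Single arms came close, with 2.34 ± 0.0321 on 2L and 2.30 in each replicate on 3R, while 2R had 1.61 ± 0.175. The order belongs to the 100 kb limit. Stretches of 200 kb or more numbered 8 on X in the combined list, 10 in replicate 1 and 8 in replicate 2. On the shorter arm 2R there were 10, 9 and 9. The bare share of X, 41.6% ± 0.436, exceeded that of the autosomal arms, 38.5% ± 0.404, but was below that of 2L, 46.9% ± 0.143. For stretches of 200 kb or more X had 12.2% ± 1.99 and the autosomal arms together 16.7% ± 0.257. In the combined list these shares were 10.8% and 15.3%. The arms differed among themselves, with 25.1% ± 1.32 on 2L, 15.0% ± 0.0276 on 3L, 13.9% ± 0.170 on 3R and 13.1% ± 0.00418 on 2R. In replicate 1 X had 13.6%, against 13.1% on 2R and 14.1% on 3R. In replicate 2 X had 10.8%, against 13.1% on 2R and 13.8% on 3R. Between the stretches of 100 kb or more X was covered for 33.7% ± 0.117, against 32.3% ± 0.215 on the autosomal arms and 33.3% ± 0.207 on 2L, the closest arm. With bare stretches taken from 200 kb, this difference also changed sign, from 1.56 to -1.43 percentage points in the combined list.

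With 2 replicates, an exact two-sided sign-flip test of X minus autosomes cannot go below p = 0.5, and arms of 1 genome are not replicates. These differences are therefore only given by replicate or beside the SD between replicates, and nothing here tests whether they are particular to X.

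**Figure D3:**
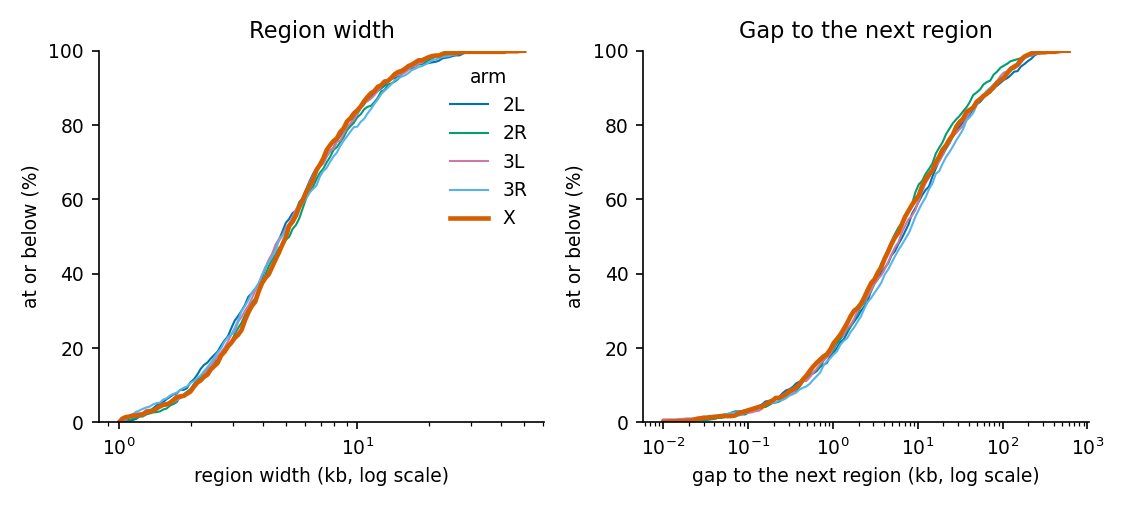
Percentage of regions at or below a given width (left) and of gaps at or below a given length (right) in the combined list, with both in kb on a log axis, for X and the 4 autosomal arms. The curves lie close together: X has the lowest share of regions of 10 kb or more, 16.0%, and the highest share of gaps under 1 kb, 21.0%.

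Most members were found again in each replicate list. An overlap of 1 bp or more with both lists was seen for 637 of the 700 members (91.0%), where 89.3% of the combined regions of the whole genome overlap both. A further 11 members (1.57%) overlapped replicate 1 alone, against 2.11% in the whole genome, 33 (4.71%) overlapped replicate 2 alone, against 4.6%, and 19 (2.71%) overlapped neither, against 4.02%. These shares are near those of the whole list. The combined list describes the same samples, so its overlap with the replicate lists is not an independent check. Of the 637, 569 (89.3%) met exactly 1 region in each replicate, against 2472 of 2688 (92.0%) on the autosomal arms. A 50% reciprocal overlap was met by 626 of the 700 members, and no share of the whole list is given beside it.

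The replicate lists themselves shared 4.05 Mb of X, 97.0% of what replicate 1 covered and 95.5% of what replicate 2 covered. For the 588 pairs of X regions matched 1 to 1 between the replicates, the median distance between corresponding boundaries was 86 bp, with quartiles of 37 and 190 bp. Of 1176 boundaries, 25 (2.13%) differed by more than 1 kb. Nearly all regions of each replicate list were in the combined list, with 0 of 683 missing for replicate 1 and 2 of 722 for replicate 2. The missing 2 lay from 19618252 to 19619672 and from 19763329 to 19765035.

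Members that were not found in both replicates were mostly narrow and low in score. The 11 found in replicate 1 alone had a median width of 1715 bp, the 33 in replicate 2 alone 1656 bp and the 19 in neither 1127 bp, against 5428 bp for those in both. Their median score percentiles were 8.92, 9.34 and 10.5, against 55.6. Of all bases in members, 97.7% lay in those found in both. The narrowest X regions of replicates 1 and 2 had 1334 and 1333 bp, more than the median of the 19 in neither. How far this limit of the lists sets which members are found again was not tested. The widest in neither replicate ran from 2416054 to 2418175, 2122 bp. It was followed by those from 16969057 to 16970737, from 3359227 to 3360770, from 13483415 to 13484867 and from 2098176 to 2099572, with 1681, 1544, 1453 and 1397 bp.

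Of the members found in 1 replicate alone, the widest stood out. It ran from 3309558 to 3312968, 3411 bp, and had a score of 1.43, at percentile 43.0. Replicate 2 listed it as 2 regions of 1333 and 1336 bp, at percentiles 59.4 and 45.2, and replicate 1 listed nothing there. The pieces are at the narrow end of replicate 2, whose narrowest X region has 1333 bp. The next were from 20946254 to 20949129 in replicate 1, and from 19859189 to 19861883, from 6446425 to 6448815 and from 14366671 to 14369046 in replicate 2. Their percentiles in the combined list were 3.34, 14.5, 15.7 and 16.0.

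Only 2 further members outside the group found in both had a score above 1, and they are neighbours. The first, from 324791 to 326513, had a score of 1.41 and was in replicate 1 alone, at percentile 49.3 of that list. The second, from 326801 to 327801, had a score of 1.30 and was in neither. These 2 were picked out after their values were seen.

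**Figure D4:**
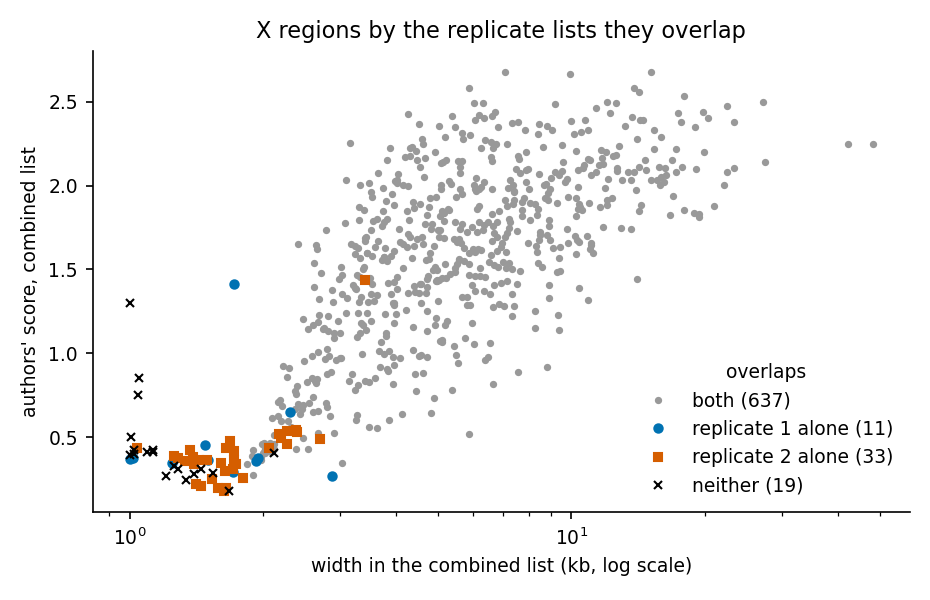
Width in kb (log axis) and the authors' score of the 700 members in the combined list, marked by the replicate lists they overlap. Members found in 1 replicate or in neither sit at the narrow, low end, and 3 of them have a score above 1.

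Score ranks of matched regions were close between replicates, with some drift on X. Among all 1 to 1 pairs on the large arms, scores were ranked within each replicate, and the Spearman rho across the 588 X pairs was 0.95 (0.97 across 2523 autosomal pairs). The percentile of an X pair was higher in replicate 2 for 350 and lower for 238, with a median change of 1.86 points. On the autosomal arms it was higher for 1207 and lower for 1310, with a median of -0.23. Rises of more than 10 points made up 17.9% of X pairs and 7.17% of autosomal pairs, while falls of that size made up 7.48% and 10.1%.

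The drift was seen along much of X but was uneven in size. The median change was above 0 in 18 of 22 windows, against 42 of 95 windows on the autosomal arms. Some of the 18 were slight, such as 0.048 points from 17000001 to 18000000. On X the median change ran from -1.22 points in the window from 20000001 to 21000000 to 8.81 points in that from 18000001 to 19000000. It was similar in pairs of low, middle and high score in replicate 1, with medians of 1.94, 2.11 and 1.24 points over 196 pairs each. Ranks are relative, so a rise on X and a fall elsewhere cannot be told apart, and a difference between 2 single libraries has no replicate check.

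Single regions departed further. The largest fall was in the first member of the chromosome, from 841 to 6403 at the tip, from percentile 69.0 in replicate 1 to 29.6 in replicate 2. It was followed by the members from 16229712 to 16234707, from 69.1 to 39.6, and from 15787833 to 15793835, from 87.8 to 63.8. The largest rise was from 32.1 to 64.6 in the member from 3745440 to 3751502. The members from 1586456 to 1590446 and from 6996001 to 6999082 rose from 61.8 to 90.7 and from 62.9 to 89.8.

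**Figure D5:**
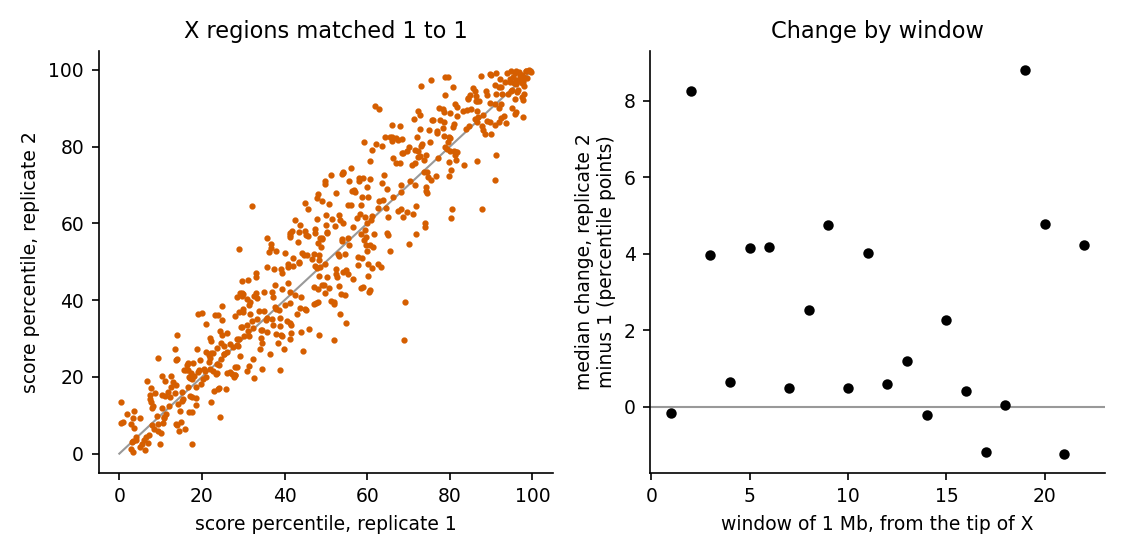
Left, score percentile of the 588 X regions matched 1 to 1 in replicate 1 and replicate 2, ranked among all matched regions of the large arms, with the line of equality. Right, median change in percentile points (replicate 2 minus replicate 1) in each 1 Mb window from the tip of X: it lies above 0 in 18 of 22 windows.

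At the limit that defines the set, the last member ran from 21259593 to 21262877, 3285 bp, at percentile 52.9. The first region past it ran from 21470776 to 21475818, 5043 bp, at percentile 84.8, and was found in both replicates. The 1 Mb past the limit held 16 regions of the combined list, which covered 8.57% of it.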

How the data were processed

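H3K36me3 was profiled by ChIP-seq in 2 replicates, each with an input. The aligner was Bowtie 0.12.7, according to the submitters' processing notes. From each ChIP replicate the authors made 1 deposited list of enriched regions, and 1 combined list stands for the series. All are on FlyBase release 5, per the file headers. Each region has a first and last base and a score, a deposited value of the authors with no stated unit. The region caller, its thresholds, the use of the input and the making of the combined list are not given in the sources used here. The threshold of the caller sets which weak regions are listed, and how it joins signal sets widths and gaps.

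Only enriched entries were used, and 1 entry of replicate 2 marked as depleted was left out. Covered bases, gaps, runs, windows and overlaps (1 bp or more) were computed with Python 3.11.15, pandas 2.3.3 and NumPy 2.4.6. Rank correlations came from SciPy 1.17.1. The functions were tested on simulated lists, and 9 of 9 known values were recovered exactly. Values are given for the combined list, with the mean and SD of the replicates. Depth is unknown, so no counting interval is given. Regions named in the text are the 10 widest and 10 highest scored members, the 5 widest found in 1 replicate and in neither, the 5 longest bare stretches, the 3 most and 3 least covered windows, the 3 longest runs and the 3 largest rises and falls in score rank. The members, measures and this rule were chosen with earlier results of these data known. No genome of release 5 was at hand, so no sequence is printed and no gene is named.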

Additional observations from a re-analysis of the deposited data

How the results depend on the processing

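Of 70 alternative values for 11 results, 28 stayed within 1 SD between the replicates, or within 1.5 times for counts, 39 moved further and 3 changed sign. The 4 comparisons of X with the autosomal arms in wide regions, short gaps, bare share and coverage outside bare stretches, with their alternatives, were added after seeing the data. Keeping only regions that scored at least the median of their list moved 8 results and turned 1. X was then covered for 14.9%, with 17.5 regions per Mb, a median width of 7061 bp, a median gap of 15824 bp and 318 regions found in both replicates. That count is out of the smaller set of regions kept, so it cannot be set directly against the 637 found among all members. X minus autosomal arms became -3.79 percentage points for regions of 10 kb or more, -0.0228 for gaps under 1 kb, 1.27 for bare share and 0.611 for coverage outside bare stretches. Joining regions under 1 kb apart gave 20.9% covered, 25.8 regions per Mb, medians of 5981 bp for width and 9968 bp for gaps, and -1.42 points for regions of 10 kb or more, against -2.18 before. The changes in the values of X itself follow largely from the construction, with weak regions or short gaps removed. The same steps were applied to the autosomal arms, and why the differences between X and those arms moved was not tested. Whole arms gave 20.0% covered, and differences of -0.346 points in covered share, 2.26 in short gaps, 4.77 in bare share and 2.09 outside bare stretches. The mean of the replicate lists gave 19.6% covered, medians of 4771 bp (width) and 5035 bp (gap), and differences of -0.232, 3.23, 3.10 and 1.32 points in the same order. Leaving out 1 replicate gave from 19.5% to 19.8% covered, from 4660 to 4881 bp in width, from 4864 to 5206 bp in gaps and differences from -0.266 to -0.198 points (covered share), -3.96 to -1.76 (wide regions), 3.17 to 3.29 (short gaps), 3.08 to 3.12 (bare share) and 1.25 to 1.39 (outside). The gap in wide regions is thus larger in replicate 2 alone. A minimum of 200 kb left 8 bare stretches on X and turned the difference in bare share to -4.46 points and that outside bare stretches to -1.43, while a minimum of 50 kb, also added after seeing the data, gave 1.64 and 1.203. The causes of these changes were not tested beyond the construction named. No paired analysis was possible because neither input has values in the lists at hand. Depth is unknown, and what it limits was not tested.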
